A study of Mus musculus with 9 samples.

Results

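MHC class II molecules display peptides from engulfed proteins to CD4+ T cells. This set holds the 10 genes of the pathway's core: the chains H2-Aa, H2-Ab1 and H2-Eb1, the invariant chain Cd74, the peptide-loading genes H2-DMa, H2-DMb1 and H2-DMb2, the loading inhibitors H2-Oa and H2-Ob, and the transactivator Ciita. They were taken from a written list, and each gene's value is that of its brightest probe set (by the mean of 9 arrays) among those listed with 1 gene symbol. On that rule 9 of the 10 genes were measured, among 22180 genes in all. The only Cd74 probe set is listed together with the microRNA gene Mir5107, so no Cd74 value is given. A further H2-Oa probe set is shared with another gene and was left out. Of the 9 measured genes, 8 passed the filter on low values (a mean log2 value of at least 3.31) and entered the tests beside 16636 genes in all. The gene that did not pass was H2-DMb2.

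The alpha and beta chains pair in the endoplasmic reticulum, where the invariant chain fills their groove. In endosomes, H2-DM exchanges the remaining invariant chain fragment for peptide, and H2-O restrains H2-DM. Ciita does not bind DNA itself: it is recruited by factors seated on the X and Y boxes that class II promoters share, and interferon gamma induces it. B cells, dendritic cells and macrophages are the textbook source of class II, which has also been described on blood stem and progenitor cells.

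The arrays profiled sorted hematopoietic stem cells (HSCs) of mice that were 6 to 8 months old, 3 arrays per genotype, which the labels call biological replicates. Wild-type mice (WT) carried floxed Bcl11a on both alleles and no Cre, heterozygotes (Het) carried 1 floxed allele with Mx1-Cre, and knockouts (KO) carried floxed Bcl11a on both alleles with Mx1-Cre. Poly(I:C), an RNA mimic that triggers interferon and through it the Mx1 promoter of the Cre, was given to all mice in 5 doses. The WT group thus shares the inducer, but lacks the Cre that both other groups carry. The sort gate kept Kit+ Sca-1+ CD150+ cells without lineage markers, CD48 or Flt3, and the labels allow YFP+ or YFP- cells without saying which array held which. Fewer cells of a type and less RNA per cell cannot be told apart in such bulk samples.

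Of the gate's genes, Kit read 8.75 to 10.01 and Slamf1 (CD150) 4.64 to 7.94 on the log2 scale over the 9 arrays. Cd48 read 3.63 to 5.13 and Flt3 3.55 to 5.36, so the range of Slamf1 overlapped both. By array, Slamf1 read 4.64, 4.67 and 6.71 in WT, 6.61, 7.32 and 7.34 in Het and 7.94, 6.53 and 6.43 in KO cells. On WT replicate 1 it lay below Cd48 (4.83) and Flt3 (4.99). Transcripts that should be absent gave a scale for dim values: the Y-linked ones gave values of 2.22 to 3.32 in the 4 female samples, and Xist read 3.58 to 4.22 on those of male mice. A level at or under 4.22 is called dim below. Read from Xist and the Y-linked genes, female mice gave 2 of 3 WT, 1 of 3 Het and 1 of 3 KO arrays (WT replicates 1 and 3, Het replicate 3 and KO replicate 3). Bcl11a itself read 8.73, 8.81 and 8.38 in WT, 8.34, 8.37 and 8.89 in Het and 7.82, 7.90 and 8.66 in KO cells. The array labelled KO replicate 3 lay inside the WT range, and the array labelled Het replicate 3 was the highest of all 9. Neither KO minus WT (-0.51, SE 0.288, limma adjusted p = 0.655; -0.78 without KO replicate 3) nor Het minus WT (-0.11, adjusted p = 0.993) passed the test. Whether the probes lie in the floxed part of the gene is not known here, and WT, Het and KO below mean the labelled genotype.

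The promoters are shown first, because X and Y boxes are known elements of class II promoters. The set itself comes from the written list and was not defined by these boxes. The RefSeq promoter table (GRCm38.p6) held 7 of the 10 genes; H2-Ab1, Cd74 and Ciita were not in it. The Y box core was searched as ATTGG and the X box core as AGNNACNG on both strands of the 250 bases before each start site. ATTGG was present for 7 of 7 genes (7 of their 8 promoters) and in 33.8% of all 32851 promoters. AGNNACNG was present for 4 of 7 genes (4 of 8 promoters) and in 43.6% of all. An AGNNACNG followed by ATTGG on the same strand, with 10 to 30 bases between them, was searched too. That pair was present for 2 of 7 genes (2 of 8 promoters), H2-Eb1 and H2-DMb1, and in 0.877% of all promoters. A second form of the X box, AACNNATGA, which overlaps the first, was picked after these sequences were seen; followed by ATTGG it was present for H2-Eb1, H2-DMb1, H2-DMb2 and H2-Ob and in 0.0548% of all promoters, a share that cannot be read as support because the form was drawn from these genes. The stretches of 62 bases around the Y box are printed 5′ to 3′ with the matched X and Y cores in capitals. H2-Oa and H2-Aa are shown with the Y core alone, since neither X form matched in the stretch shown (H2-Oa has an AGNNACNG elsewhere in its 250 bases); this says only that those letters are not in the window. H2-DMa, with 2 promoters in the table, is not shown.
H2-Aa, chr17:34287860-34287921, minus strand: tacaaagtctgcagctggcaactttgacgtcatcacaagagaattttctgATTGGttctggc
H2-Eb1, chr17:34305758-34305819, plus strand: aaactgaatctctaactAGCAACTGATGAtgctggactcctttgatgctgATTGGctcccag
H2-DMb1, chr17:34153080-34153141, plus strand: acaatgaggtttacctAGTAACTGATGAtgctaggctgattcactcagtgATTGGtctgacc
H2-DMb2, chr17:34145109-34145170, plus strand: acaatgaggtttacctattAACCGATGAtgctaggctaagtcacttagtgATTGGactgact
H2-Ob, chr17:34238798-34238859, plus strand: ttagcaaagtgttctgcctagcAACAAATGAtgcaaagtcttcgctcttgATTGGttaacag
H2-Oa, chr17:34092286-34092347, plus strand: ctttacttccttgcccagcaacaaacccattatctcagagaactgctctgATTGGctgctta

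In these windows ATTGG began 48 bases before the start site of H2-Aa, 59 before that of H2-Eb1, 61 before H2-DMb1, 90 before H2-DMb2, 57 before H2-Ob and 43 before H2-Oa.

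The first question is how the set reads in the arrays labelled KO beside those labelled WT. H2-Ab1 was the member with the largest difference, 2.6-fold lower in KO cells, and H2-Ob was the member whose WT and KO arrays did not overlap. The other chains, the H2-DM genes and Ciita differed from WT by under 0.5 in log2, and H2-Oa by 0.98 on the strength of 1 array. With limma, 0 of 8 tested members passed an adjusted p under 0.05 (Benjamini-Hochberg over all genes), where 7 of 16636 genes (0.0421%) did. At an unadjusted p under 0.05, 1 of 8 members and 8.21% of all genes passed. Of the 8 tested members 5 were higher and 3 lower in KO cells, with a median difference of 0.08, beside -0.04 over all genes tested.

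**Figure D1:**
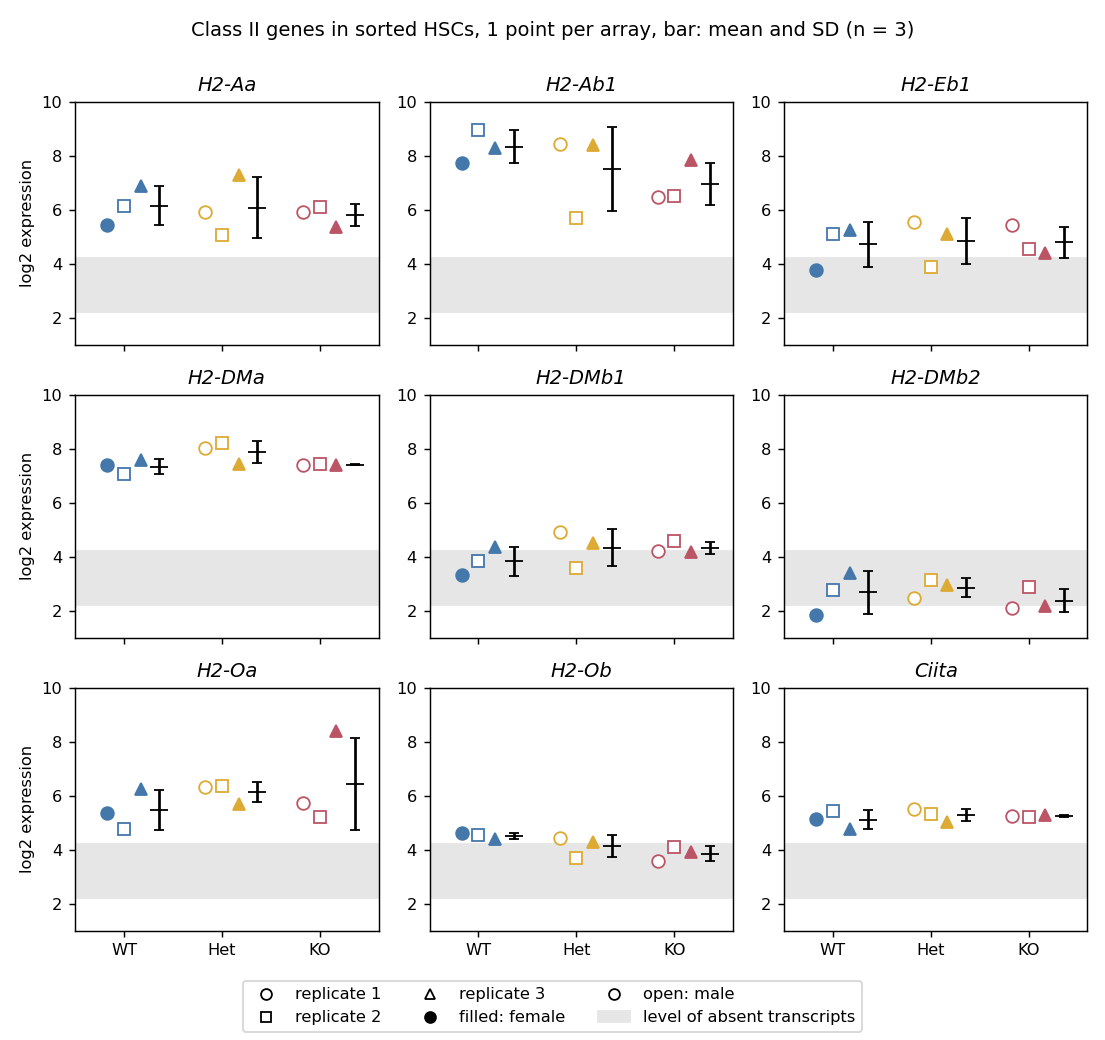
Log2 expression (vertical axis) of the 9 measured class II genes on each array, by genotype (horizontal axis). Symbols mark replicate number, filled points are female and open points male mice, bars give mean and SD of 3 arrays, and the grey band spans 2.22 to 4.22, where transcripts expected to be absent read. H2-Ab1 reads 5.71 on Het replicate 2 and H2-Oa 8.39 on KO replicate 3, each apart from the other arrays of its genotype.

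Among the surface chains, H2-Ab1 encodes the beta chain of I-A, the class II molecule carried by all common laboratory strains. It read 7.75, 8.96 and 8.27 in WT, 8.43, 5.71 and 8.40 in Het and 6.48, 6.51 and 7.85 in KO cells. The means were 8.33 ± 0.607, 7.51 ± 1.56 and 6.95 ± 0.782 (SD, n = 3), in the order WT, Het, KO, with arrays of every neighbouring pair overlapping. KO replicates 1 and 2 lay below every WT array, KO replicate 3 lay inside the WT range, and Het replicate 2 was the lowest array of all. KO minus WT was -1.38 (SE 0.693, 95% interval -2.92 to 0.16, adjusted p = 0.633 with limma; exact two-sided permutation p = 0.2; with 3 arrays per group p cannot be under 0.1). Without KO replicate 3 the difference was -1.83. The sexes did not give the same value: KO minus WT was -0.16 in female mice (1 KO and 2 WT arrays) and -2.47 in male mice (2 KO and 1 WT), and with sex as a term it was -1.19. The female arrays of all genotypes read 7.75 to 8.40, while the male arrays held both the highest and the lowest values of this gene.

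H2-Aa encodes the alpha chain that pairs with H2-Ab1. It read 5.42, 6.15 and 6.87 in WT, 5.90, 5.06 and 7.29 in Het and 5.93, 6.11 and 5.35 in KO cells. KO replicate 3 lay below the WT range and the other KO arrays inside it, and the Het arrays spanned more than it. The KO mean differed from WT by -0.35 (SE 0.538, interval -1.54 to 0.84, adjusted p = 0.858), a difference smaller than the SD of 0.725 among WT arrays. It was -0.13 without KO replicate 3, 0.012 without WT replicate 3 and -0.71 without WT replicate 1. A drop of the size fitted for H2-Ab1 lies inside this interval, so these arrays do not separate the partner chains.

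H2-Eb1 is the beta chain of the other class II molecule, I-E. RefSeq lists the gene of its partner, H2-Ea, as a transcribed pseudogene in the reference strain, and the labels name no strain for these mice. H2-Eb1 read 3.76, 5.10 and 5.26 in WT, 5.54, 3.88 and 5.09 in Het and 5.45, 4.53 and 4.39 in KO cells, dim on 2 of 9 arrays. The 3 means were 4.71 ± 0.824, 4.84 ± 0.859 and 4.79 ± 0.576, closer to each other than the arrays within any genotype. KO minus WT was 0.08 (SE 0.513, interval -1.06 to 1.22), and -0.48 with the width of each array's distribution as a term in the fit.

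The H2-DM genes encode the peptide exchange factor. H2-DMa, its alpha chain, read 7.39, 7.05 and 7.57 in WT and 7.40, 7.44 and 7.38 in KO cells. The KO arrays lay close together (SD 0.0306) and inside the WT range. Their mean differed from WT by 0.07 with an interval of -0.50 to 0.64, the second narrowest among the tested members after Ciita; it was -0.08 when the arrays were quantile normalized again. In Het cells H2-DMa read 8.01, 8.20 and 7.42, and replicates 1 and 2 lay above every WT and KO array. Het minus WT was 0.54 (SE 0.258, interval -0.03 to 1.11, adjusted p = 0.992; exact permutation p = 0.2). The Het arrays above WT were those of male mice: Het minus WT was 1.06 within male and -0.06 within female mice.

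H2-DMb1 and H2-DMb2 are neighbouring copies of the beta chain gene, and probes may not separate such copies. H2-DMb1 read 3.30, 3.83 and 4.37 in WT, 4.91, 3.57 and 4.52 in Het and 4.21, 4.59 and 4.17 in KO cells. It was dim on 5 of 9 arrays, and all 3 genotypes overlapped (KO minus WT 0.49, SE 0.377, interval -0.35 to 1.33; Het minus WT 0.50). Without WT replicate 1 these values were 0.22 and 0.23, and without WT replicate 3 they were 0.76 and 0.77. Without Het replicate 1 or 2 the latter was 0.21 or 0.88, and with the width of each array's distribution as a term they were 0.14 and 0.34. H2-DMb2 read 1.82, 2.78 and 3.41 in WT, 2.46, 3.15 and 2.94 in Het and 2.08, 2.87 and 2.16 in KO cells, dim on 9 of 9 arrays. In a fit without the filter it differed by -0.30 between KO and WT (interval -1.17 to 0.57), a value from a level at which transcripts expected to be absent also read.

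H2-Oa and H2-Ob pair to form H2-O, the inhibitor of H2-DM that is best known from B cells and thymic epithelium. H2-Ob read 4.61, 4.56 and 4.40 in WT, 4.44, 3.68 and 4.30 in Het and 3.56, 4.08 and 3.92 in KO cells. Every KO array lay below every WT array, the means were ordered WT (4.52 ± 0.11), Het (4.14 ± 0.404) and KO (3.85 ± 0.266), and Het overlapped both. KO minus WT was -0.67 (SE 0.261, interval -1.25 to -0.09, 1.59-fold lower, unadjusted p = 0.0273, adjusted p = 0.563; exact permutation p = 0.1, the smallest possible). It was lower within female (-0.59) and within male mice (-0.74), and -0.70 without KO replicate 3. Among all genes tested, 7.32% were lower and 6.51% higher in KO cells with no overlap (13.8% in either direction), against 1 and 0 of 9 measured members. All 3 KO arrays of H2-Ob were dim, so the lower end of this difference lies near the floor of the arrays. Per deleted allele the linear term was -0.34 (SE 0.123, adjusted p = 0.515).

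H2-Oa read 5.37, 4.77 and 6.25 in WT, 6.32, 6.37 and 5.71 in Het and 5.72, 5.22 and 8.39 in KO cells. KO replicate 3 lay far above every other array, the next being Het replicate 2, and the other KO arrays lay inside the WT range. KO minus WT was 0.98 (SE 0.709, interval -0.59 to 2.55, adjusted p = 0.718) with all arrays and 0.007 without KO replicate 3. Within female mice, where KO is that array alone, the difference was 2.58, and within male mice it was 0.70.

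Ciita, the transactivator that sets class II transcription, read 5.13, 5.44 and 4.75 in WT, 5.50, 5.31 and 5.03 in Het and 5.25, 5.21 and 5.29 in KO cells. All KO and all Het arrays but 1 lay inside the WT range, the exception being Het replicate 1 just above it. KO minus WT was 0.14 (SE 0.243, interval -0.40 to 0.68, adjusted p = 0.873; -0.017 when quantile normalized again) and Het minus WT was 0.17 (interval -0.37 to 0.71). The spread of Ciita within genotypes (a pooled SD of 0.243) was larger than that of 18.7% of all genes tested, whereas that of H2-Ab1 (1.07) exceeded 97.9% and that of H2-Oa (1.09) 98.1% of them. H2-Aa and H2-Eb1 also stood high, at 93.5% and 91.8%. The beta and alpha chains of the surface molecules were therefore among the genes that varied most between arrays of a genotype, and their transactivator was not.

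**Figure D2:**
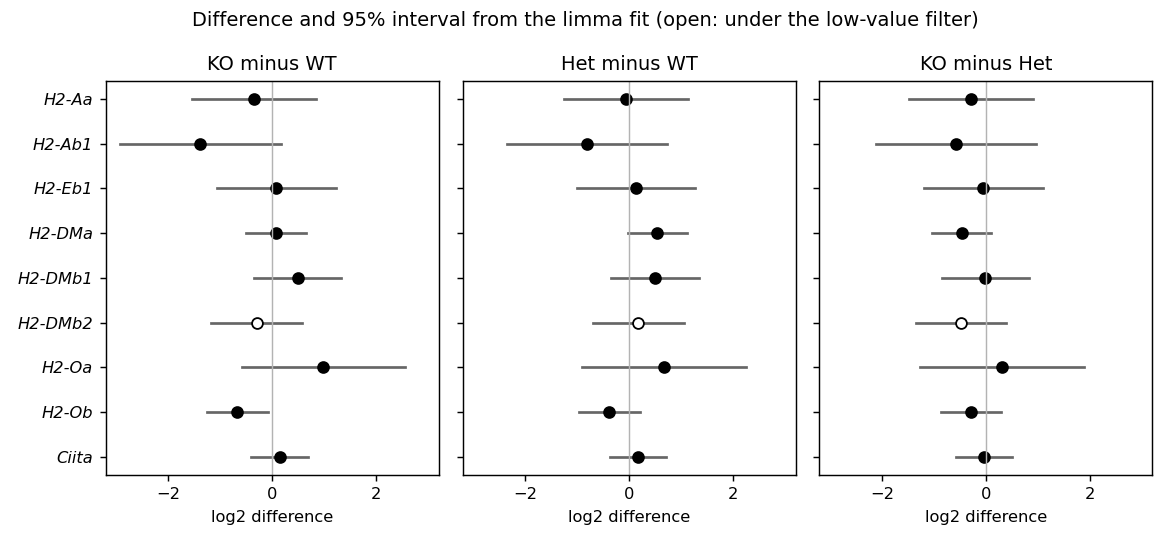
Log2 differences (horizontal axis) of the 9 measured class II genes with 95% intervals from the limma fit over all genes, for KO minus WT, Het minus WT and KO minus Het. Every interval includes 0 except that of H2-Ob for KO minus WT, -1.25 to -0.09, and the open points mark H2-DMb2, which lay under the filter on low values.

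Cells labelled Het, with 1 floxed allele, were set against WT next. H2-Ab1 (-0.81, SE 0.693) and H2-Ob (-0.38, SE 0.261) were lower on average, H2-Oa (0.67), H2-DMa (0.54) and H2-DMb1 (0.50) higher, and none passed. With limma, 0 of 8 members and 0 of 16636 genes (0.0%) were called. At an unadjusted p under 0.05, 0 of 8 members and 4.89% of all genes passed. The groups overlapped for 9 of 9 measured members, while 8.41% of all genes tested did not overlap (3.9% lower and 4.51% higher in Het cells). The H2-Ab1 value rested on Het replicate 2, without which it was 0.09.

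KO compared directly with Het asks what the second allele adds. Of 8 tested members 7 were lower in KO cells, with a median of -0.17 beside -0.02 over all genes, and 46.9% of all genes were higher. H2-Ab1 differed by -0.57 (interval -2.11 to 0.97), and by -1.47 without Het replicate 2, -1.02 without KO replicate 3, -0.11 without Het replicate 1, -0.12 without Het replicate 3, -0.33 without KO replicate 1 and -0.35 without KO replicate 2. The interval of every other tested member included 0 too: H2-DMa differed by -0.47 (-1.04 to 0.10) and H2-DMb1 by -0.01. H2-Oa was the member that was higher, by 0.31, and was -0.66 without KO replicate 3. Here too 0 of 8 members and 0.0% of all genes were called by limma. At an unadjusted p under 0.05 the shares were 0 of 8 and 4.56%, and arrays overlapped for 9 of 9 measured members (9.82% of all genes did not overlap, 5.4% lower and 4.42% higher in KO cells). The linear term per deleted allele called 0 of 8 members and 0.018% of all genes; H2-Ab1 had a slope of -0.69 (SE 0.333, adjusted p = 0.584). At an unadjusted p under 0.05, it passed for 1 of 8 members and 8.65% of all genes.

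Except for Ciita and Cd74, the members lie in the class II region of chromosome 17. In RefSeq the order is H2-Oa, Brd2, H2-DMa, H2-DMb2, H2-DMb1, Psmb9, Tap1, Psmb8, Tap2, H2-Ob, H2-Ab1, H2-Aa, H2-Eb1, H2-Eb2, H2-Ea, with the non-coding Gm20506 between H2-Ob and H2-Ab1. The members with the largest differences below WT, H2-Ob (-0.67) and H2-Ab1 (-1.38), are protein-coding neighbours, and the next gene, H2-Aa, differed by -0.35. On either side of this stretch, Tap2, a peptide transporter subunit of the class I pathway, differed by 0.50 (interval -0.20 to 1.19) and H2-Eb1 by 0.08. None of these differences passed the test, and whether neighbours differ from each other was not tested.

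**Figure D3:**
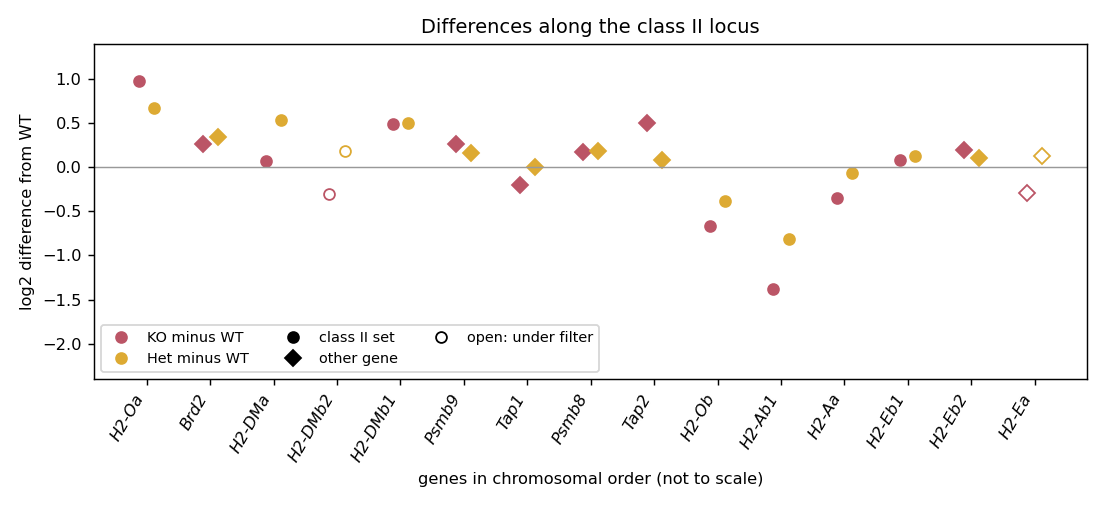
Log2 difference from WT (vertical axis) for KO and Het cells, for the measured genes of the class II region in chromosomal order (horizontal axis, not to scale). H2-Ob and H2-Ab1 are the lowest points for both genotypes, at -0.67 and -1.38 for KO and -0.38 and -0.81 for Het.

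Across the 9 arrays the members did not move as a block. Of 36 pairs of measured members, Pearson's r was above 0.5 for 5 and above 0 for 19. The closest pair was H2-Ab1 and H2-Ob (r = 0.81, Spearman's rho = 0.68; r = 0.72 for deviations from the genotype means). Next came H2-Eb1 and H2-DMb1 (r = 0.73, rho = 0.67, and 0.80 within genotypes). H2-Aa correlated with H2-Eb1 at 0.63, with H2-DMb1 at 0.55 and with its partner H2-Ab1 at 0.51. Ciita correlated with H2-Aa at -0.57 and with H2-Ab1 at -0.06. These values describe 9 arrays that share a normalization and carry no test.

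**Figure D4:**
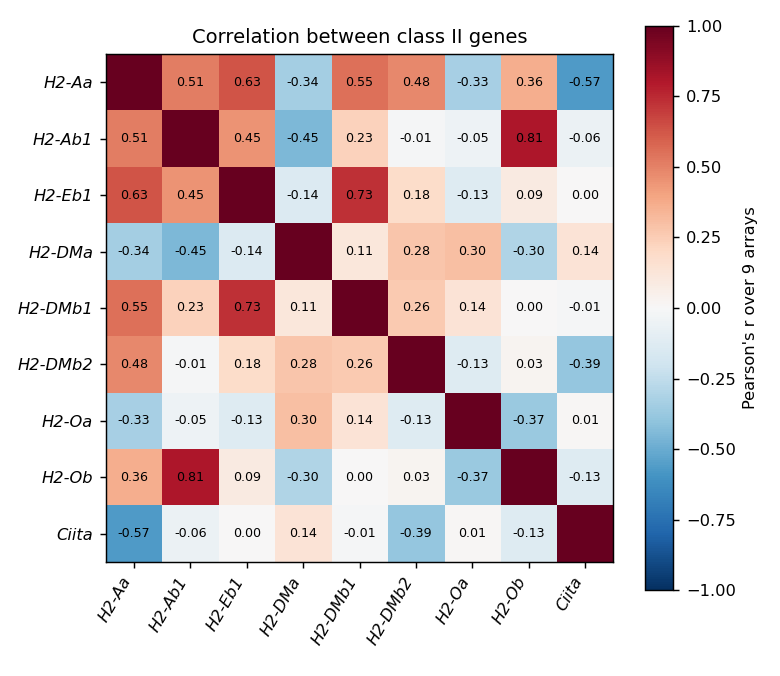
Pearson's r over 9 arrays between each pair of measured class II genes, from -1 (blue) to 1 (red). H2-Ab1 with H2-Ob (0.81) and H2-Eb1 with H2-DMb1 (0.73) are the highest values, and H2-Aa with Ciita (-0.57) is the lowest.

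**Figure D5:**
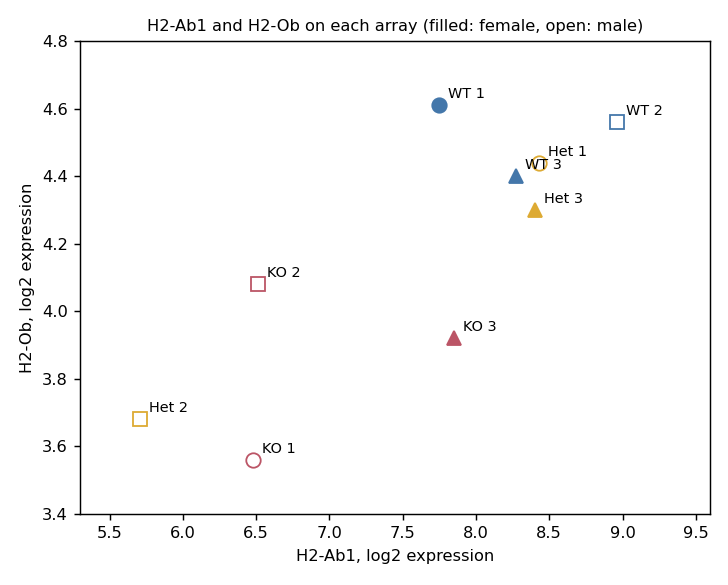
H2-Ab1 (horizontal axis) against H2-Ob (vertical axis), both as log2 expression, 1 point per array, filled for female and open for male mice. The WT arrays and Het replicates 1 and 3 lie at H2-Ab1 levels from 7.75 to 8.96 with H2-Ob from 4.30 to 4.61, Het replicate 2 and KO replicates 1 and 2 lie lower on both, and KO replicate 3 lies at 7.85 for H2-Ab1 with 3.92 for H2-Ob.

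Within each genotype, 1 of 3 arrays is always the lowest and 1 the highest for a member, and some arrays were so for several members. No such count was made for other genes, so the counts below only describe these members. WT replicate 1 and Het replicate 2 were the lowest for 5 of 9 members each and KO replicate 3 for 4. WT replicate 3 was the highest for 6, and Het replicate 1 and KO replicate 2 for 5 each. The mean of H2-Aa, H2-Ab1 and H2-Eb1 was 5.64, 6.74 and 6.80 on the WT arrays, 6.62, 4.88 and 6.93 on the Het arrays and 5.95, 5.72 and 5.86 on the KO arrays. The width of each array's distribution had the same order as this mean among the WT and among the Het arrays, but not among the KO arrays: the interquartile range was 2.22, 2.47 and 2.69 in WT, 2.53, 2.39 and 2.77 in Het and 2.83, 2.80 and 2.42 in KO. With that range as a term in the fit, KO minus WT was -1.57 for H2-Ab1 and -0.69 for H2-Ob, and -1.08 for H2-Aa (adjusted p = 0.592). The 5 other tested genes most like this mean over the 9 arrays were Ttc7 (r = 0.923), Psmf1 (0.923), Nup133 (0.914), Cmc2 (0.909) and Nrm (0.908), chosen as the highest over all genes tested.

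Summed levels of B-cell and of dendritic markers did not overlap between WT and KO cells. Of all single genes tested, 13.8% did not overlap and 45.3% were higher in KO cells, but no such share was computed for sums of genes. For B cells, 8 of 8 tested markers were lower in KO than in WT cells (median -0.29), 0 of them called. The summed log2 level of the 11 measured markers, 3 of them under the filter, was 43.82 to 47.39 in WT, 42.17 to 45.07 in Het and 41.28 to 42.41 in KO cells. Within WT and within Het this B-cell sum fell as the array's interquartile range rose. It was 47.39, 44.37 and 43.82 on the WT arrays, at ranges of 2.22, 2.47 and 2.69. On the Het arrays it was 43.83, 45.07 and 42.17, at 2.53, 2.39 and 2.77. On the KO arrays it was 41.30, 41.28 and 42.41, at 2.83, 2.80 and 2.42, so the narrowest KO array had the highest KO sum. Within WT and within Het the dendritic sum did not follow the range in this way, and no sum was adjusted for the range. Cd79a, Ms4a1, Ebf1 and Vpreb1 were dim on every array, among them the B-cell receptor chain Cd79a at 3.68 ± 0.221 in WT and 3.22 ± 0.316 in KO, while the B-cell factor Pax5 read 4.85 ± 0.30 and 4.44 ± 0.145. For dendritic cells 8 of 10 tested markers were lower in KO cells (median -0.26); the sum of 11 was 48.89 to 51.18 in WT, 47.89 to 50.99 in Het and 46.42 to 46.85 in KO cells. Itgax, Xcr1 and Clec10a were dim on every array, and Flt3, which early progenitors also express, differed by -1.06 (adjusted p = 0.475). For macrophages and monocytes 9 of 12 were lower (median -0.22), with overlapping sums of 55.99 to 61.50 in WT, 53.88 to 57.70 in Het and 54.54 to 60.90 in KO cells. There Ccr2 and Vcam1 were dim on every array, Lyz2, lysozyme, differed by -1.03 (adjusted p = 0.427) and the endosomal protein Cd68 by 1.63 (0.557). The part of such cells in the H2-Ab1 and H2-Ob values was not tested. On Het replicate 2, the array with the lowest H2-Ab1, the B-cell sum was 45.07, the highest of the Het arrays, the dendritic sum was 48.19, between the others, and the macrophage and monocyte sum was 53.88, the lowest of all 9 arrays.

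The machinery around the members was described from lists of known pathway genes, and no gene of these lists was called in any comparison. Of the 7 factors that bind the X and Y boxes, 4 were higher and 3 lower in KO cells (median 0.02). Rfx5, a subunit of the factor on the X box, read 4.44 to 4.81 in WT and 5.39 to 5.91 in KO cells (0.99, SE 0.298, adjusted p = 0.449), and Nfyb, a subunit of the factor on the Y box, read 6.56 to 7.17 and 5.49 to 6.55 (-0.74, adjusted p = 0.615). The groups of both did not overlap, as for 13.8% of all genes tested; they are named as the list's smallest p-values. Among 11 measured regulators of Ciita, 7 were higher and 4 lower (median 0.36). Jak1, a kinase of interferon receptors, read 8.02 to 8.10 in WT and 8.74 to 8.93 in KO cells (0.78, SE 0.218, adjusted p = 0.41), and Irf1, an interferon-induced factor that acts on the Ciita promoter, 5.26 to 5.87 and 6.03 to 6.32 (0.69, adjusted p = 0.563). Both, named by the same rule, read higher in KO cells without overlap, as did 6.51% of all genes tested.

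Of 9 endosomal processing genes, 5 were higher and 4 lower in KO cells (median 0.02). Ctss, the cathepsin that trims the invariant chain in antigen-presenting cells, read 6.33, 7.01 and 4.43 in WT and 5.95, 4.01 and 4.19 in KO cells (-1.21, adjusted p = 0.655), with overlap. Ctsh, another cathepsin, differed by -0.56 (adjusted p = 0.592). For the class I pathway, which presents peptides from the cell's own cytosol, 8 of 12 tested genes were higher (median 0.20), with Erap1, a peptide-trimming aminopeptidase, at 1.15 (adjusted p = 0.592) and Tapbp, which loads class I, at 0.58 (0.662). Costimulatory and inhibitory surface molecules were split, with 2 of 4 tested higher in KO cells. The inhibitory ligand Cd274 differed by 0.88 and the receptor Cd40 by -0.42. Cd80 and Cd86, the ligands a class II cell uses to activate T cells, lay under the filter. They read 2.62 to 3.32 on all arrays (this pair was picked after its values were seen). HSC genes were higher in KO than in WT cells for 5 of 5 tested, where 45.3% of all genes were. Mecom, a stem cell transcription factor, differed by 1.94 (adjusted p = 0.137) and Slamf1 by 1.63 (0.543). The same 5 of 5 were higher in Het than in WT cells (48.2% of all genes). WT replicate 1 was the lowest of all arrays for each of them, with Mecom at 5.65, 6.53 and 7.12 on the WT arrays. Of the 5 tested genes listed for markers outside the gate (Cd48, Flt3, Cd3e, Ptprc and Itgam), 2 were higher and 3 lower in KO cells (median -0.09). Ptprc, higher by 0.50, read 8.57 to 9.39 over the 9 arrays, so not every listed gene was absent from the sorted cells. Named by the same rule, Flt3 differed by -1.06 (adjusted p = 0.475) and the myeloid integrin Itgam by 1.21 (adjusted p = 0.563). Itgam read 4.46, 4.57 and 6.10 on the KO arrays.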

How the data were processed

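The authors deposited log2 expression per probe set of Affymetrix Mouse Gene 2.0 ST arrays. The submitters' processing notes name RMA, without version or settings. RMA corrects background, quantile normalizes and summarizes probes, which compresses differences of dim genes. RNA was amplified before labelling, per the labels' protocols, which can add spread. Medians of the 9 arrays were 3.95 to 4.15. Precision is limited by 3 arrays per genotype. Of 41345 probe sets 23521 had 1 gene symbol, 1814 several and 16010 none; 23328 probe sets had their symbol looked up by gene identifier.

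The filter on low values took out genes whose mean lay below the 25th percentile. Genotype means on all 9 arrays were estimated by limma 3.58.1 under R 4.3.3 (lmFit, eBayes; 6 residual and 4.26 prior degrees of freedom). Adjusted p-values are two-sided Benjamini-Hochberg values over 16636 genes; intervals are 95% intervals from the fit. The fit was tested on simulated data. The members, lists and motifs were chosen with earlier results of these data known, and the second X box form after the sequences were seen. Named are all members, per list any gene called or otherwise the 2 with the smallest p for KO with WT, and the 5 genes most like the mean of the surface chains, from which Cd74 was missing. Marker sums, dim markers and order in the region were added to this rule.

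Alternatives were no filter or one at the median, the mean of a gene's probe sets, an intensity trend, quantile normalization, array weights, a replicate block, sex or interquartile range as a term, and leaving out each array.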

Additional observations from a re-analysis of the deposited data

Results flagged for a closer look

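Ciita and H2-DMa were picked out because the KO arrays lay on opposite sides of the WT arrays in the sexes. The female mice gave 1 KO and 2 WT arrays, the male mice 2 and 1. For Ciita the KO-WT difference was 0.35 among females and -0.21 among males. For H2-DMa it was -0.10 within female and 0.37 within male mice. The female side is barely a separation, since the KO array read 7.38 and the WT arrays 7.39 and 7.57. The difference between the sexes was not tested, and each side has only 1 or 2 arrays. The share of all genes with such a split was not computed, so it cannot be read as unusual for these members.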

How the results depend on the processing

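No member was called in any of the 4 comparisons under any alternative run; the smallest adjusted p was 0.309, for H2-Ab1 in KO against WT with array weights. The number of genes called over all genes did change. For KO against WT it was 7. The count was 4 with the filter at the median level, 3 when quantile normalized again, 24 with array weights, 0 with the replicate block, 3 with sex as a term and 0 with the interquartile range added. Leaving out 1 array gave 0 to 15. The lowest count, 0, came from omitting WT replicate 1 or KO replicate 1; omitting WT replicate 2 or Het replicate 1 gave 1, WT replicate 3 or KO replicate 2 gave 2, Het replicate 3 gave 3 and KO replicate 3 gave 15. Per deleted allele 3 genes were called, against 15 with array weights, 7 with the replicate block, 1 with sex as a term and 0 with the interquartile range added. Leaving out 1 array gave 0 to 14 there: 6 on omitting Het replicate 2, 0 on omitting KO replicate 1 or 2 and 14 on omitting KO replicate 3. Whether replicate numbers pair the samples is not known. Deviations from the genotype means correlated at -0.185 to 0.229 between same-numbered arrays (9 pairs) and -0.160 to 0.196 between others (18 pairs). These ranges overlap, and deviations from a mean of 3 arrays depend on each other, so they cannot decide it. The replicate block changed no call of a member (H2-Ab1 -1.38, adjusted p = 0.66 with limma).

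The sign of some differences turned. With sex as a term, H2-Eb1 became -0.007 (KO minus WT) and -0.005 (per deleted allele), H2-Aa 0.063 and Bcl11a 0.013 (Het minus WT). With the interquartile range as a term, H2-Eb1 became -0.48 (KO minus WT), -0.13 (Het minus WT) and -0.24 (per deleted allele), and Ciita 0.038 (KO minus Het). Quantile normalized again, Ciita became -0.017 and H2-DMa -0.08 (KO minus WT), -0.009 and -0.04 (per deleted allele), and H2-DMb1 0.041 (KO minus Het). With array weights H2-Oa became -0.30 (KO minus Het). The cause was not tested. With 1 array left out, KO minus WT ran from -0.035 to 0.31 for Ciita, -0.71 to 0.012 for H2-Aa, -0.073 to 0.19 for H2-DMa and -0.39 to 0.36 for H2-Eb1. Het minus WT ran from -0.005 to 0.34 for Ciita, -0.67 to 0.45 for H2-Aa, -1.27 to 0.088 for H2-Ab1 and -0.34 to 0.61 for H2-Eb1. KO minus Het ran from -0.16 to 0.08 for Ciita, -0.80 to 0.32 for H2-Aa, -0.39 to 0.28 for H2-DMb1, -0.53 to 0.31 for H2-Eb1 and -0.66 to 0.92 for H2-Oa. Per deleted allele it ran from -0.018 to 0.14 for Ciita, -0.07 to 0.08 for H2-DMa and -0.18 to 0.16 for H2-Eb1. H2-Ab1 and H2-Ob kept their direction in KO against WT under every alternative run; H2-Ob has no value with the filter at the median level, since it lies under it. H2-DMb2 was not tested under the filter and has no alternatives.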
